A study of Homo sapiens with 6 samples.

Results

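Of the clusters of reads listed for the eCLIP experiment on Angel1, 217 of 205520 lay on the mitochondrial chromosome. All rows of the cluster lists on that chromosome were taken, 36 of 5717 for the control IP, 76 of 102843 for FLAG-Angel1 replicate 1 and 105 of 96960 for FLAG-Angel1 replicate 2, and each was assigned by position and strand to the mitochondrial gene it overlapped most. In eCLIP, UV light links RNA to the proteins that touch it, the fragments pulled down with the protein of interest are sequenced as the IP, and a part of the lysate without pull-down is sequenced as the size-matched input. The cells were HEK293, a human embryonic kidney line, carrying a tetracycline-inducible FLAG-Angel1 transgene (Flp-In T-REx) or, in the control named FLAG-only, no FLAG fusion protein. All cells, the controls included, received tetracycline at 5 ng/mL over 24 h and then UV light of 254 nm at 400 mJ/cm2, and the FLAG M2 antibody was used for all IPs. FLAG-Angel1 was measured in 2 replicates and the control in 1, each with its own input. The labels name FLAG-Angel1 as the genotype of the control libraries too, and the description in the methods was used. The methods also mention a sample without UV exposure, which no label marks. Whether the replicates came from separate cultures was not stated. The lists hold clusters only, so that markers of the cell line were not analysed here.

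Angel1 is a homolog of the CCR4 deadenylases. According to the paper its own enzymatic activity is not well defined, and its role was studied in the decay of mRNAs that lack a stop codon. The mitochondrial genome is compact and is transcribed from both strands into long precursors, from which the 12S and 16S rRNAs, the tRNAs and the mRNAs are released, in many places by excision of the tRNAs that separate them. Its mRNAs encode subunits of respiratory complexes I, III and IV and of the ATP synthase (complex V), and are translated inside the organelle by mitochondrial ribosomes.

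Each cluster carried a log2 fold of IP over input and a P for enrichment from the eCLIP pipeline. A cluster was called enriched when P passed 0.05 with a log2 fold above 0. The numbers of reads behind a cluster were recovered from its log2 fold and P, with inferred library sizes of 209788 reads in the control IP and 3249250 in its input, 3396701 and 722085 in replicate 1, and 2543630 and 2812210 in replicate 2. The read numbers were settled for 15 control clusters, 35 of replicate 1 and 36 of replicate 2. For the others only the smallest whole numbers with the same ratio were known, which are lower bounds. Intervals given for a log2 fold are 95% intervals on these reads and cover counting error only, and adjoining clusters may share reads. The control was a single library and clusters do not stand in for replicates, and libraries were therefore compared without a P.

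The clusters lay between positions 613 and 15993, a range that fits either of the mitochondrial references in use for GRCh37 (hg19), which differ by 2 nt in length. Gene positions came from a later assembly, and moving them by up to 2 nt changed the gene of 0 clusters. All 217 clusters fell in a gene, on its coding strand, and 0 were antisense to it. The control clusters covered 1803 nt, those of replicate 1 covered 4483 nt and those of replicate 2 covered 4381 nt, with 3588 nt common to the replicates.

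The enriched clusters of both FLAG-Angel1 IPs included every cluster on COX1, COX2, COX3 and CYTB, a stretch near the 3′ end of the 16S rRNA and parts of the 12S rRNA. Clusters on the complex I and complex V genes had log2 folds close to 0 or below it in replicate 1, and no tRNA cluster was enriched in any IP. In all, 32 clusters were enriched in replicate 1 (42.1% of 76), where 11.7% of all clusters in the list were, and 53 in replicate 2 (50.5% of 105), where 40.7% of all clusters were. The control IP had 3 enriched mitochondrial clusters (8.33% of 36), where 91.8% of all its clusters were enriched. The mitochondrial share past the threshold thus stood above the background of replicate 1, nearer to that of replicate 2 and far below that of the control. The fold itself ran the other way. In replicate 1 the mitochondrial median log2 fold was 0.06 and the nuclear one 0.57, with 40 of 76 mitochondrial and 70671 of 102767 nuclear clusters above 0. In replicate 2 the medians were 0.40 and 1.73, with 62 of 105 and 94383 of 96855 above 0. P depends on the number of reads as well as on the fold. Among clusters with settled reads, those on the rRNAs had the most IP reads in each library. In replicate 1, 44.8% of rRNA and 46.3% of coding clusters were enriched, and in replicate 2 50% and 55.8%. The reads of nuclear clusters were not compared, and whether read numbers account for the mitochondrial share was not tested. The highest mitochondrial log2 folds, 2.71 for the control, 2.29 for replicate 1 and 2.49 for replicate 2, were modest beside the nuclear maxima of 11.5, 5.19 and 6.64.

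**Figure D1:**
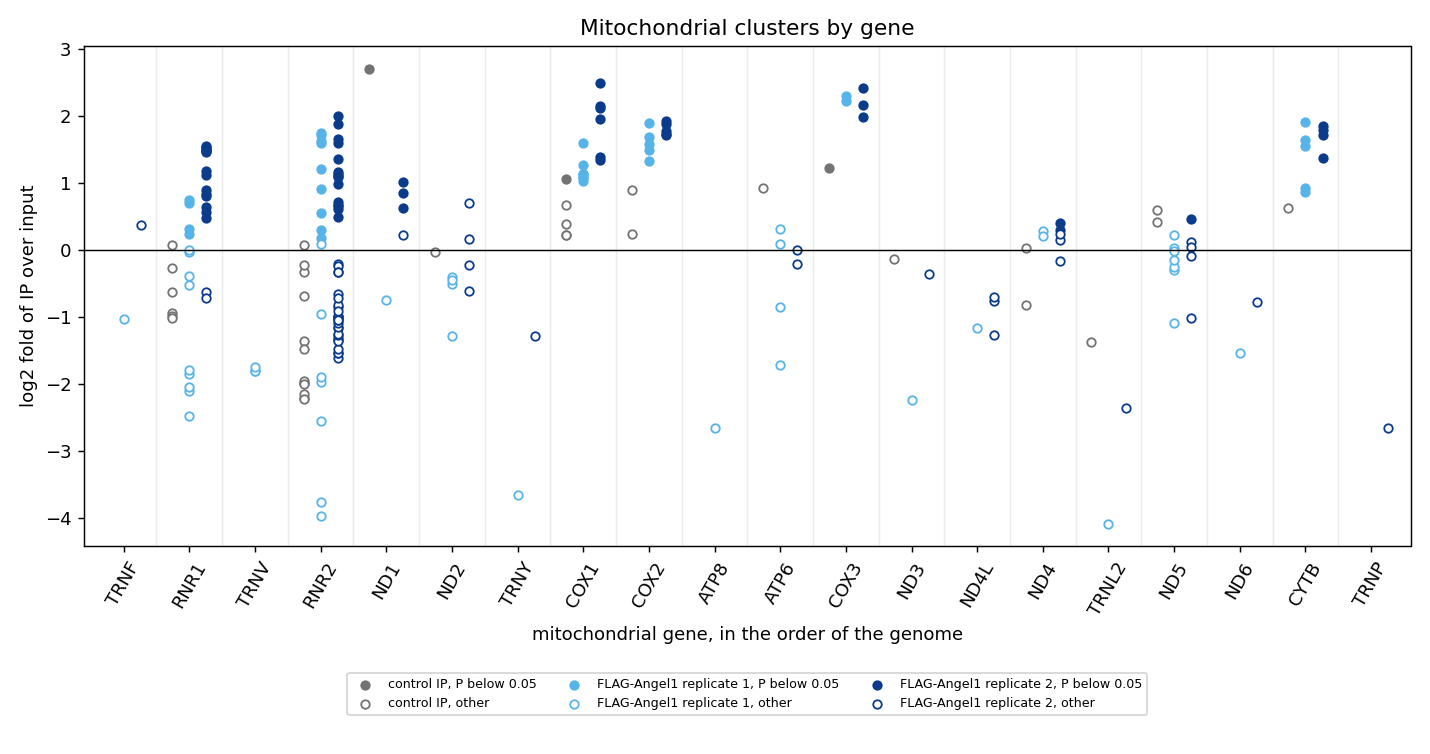
Log2 fold of IP over input (vertical axis) of each mitochondrial cluster, by gene in genome order (horizontal axis), for the control IP (grey), FLAG-Angel1 replicate 1 (light blue) and replicate 2 (dark blue), with clusters past P of 0.05 filled. All FLAG-Angel1 clusters on COX1, COX2, COX3 and CYTB are filled, between 0.87 and 2.49, whereas all clusters on TRNY, TRNL2, ND6 and TRNP lie below 0.

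COX1, COX2 and COX3 encode the catalytic core of cytochrome c oxidase (complex IV). All 14 of their clusters in replicate 1 were enriched, with a median log2 fold of 1.41 and a range from 1.02 to 2.29, and so were all 14 in replicate 2, with a median of 1.95 and a range from 1.34 to 2.49. In the control IP, 2 of 8 clusters were enriched, and the log2 folds, all above 0, had a median of 0.53 and a range from 0.23 to 1.23. The control range met that of replicate 1 between 1.02 and 1.23 and lay wholly below that of replicate 2.

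On COX3, clusters were confined to the part from 65.1% to 91.3% of the gene's length in all 3 IPs. Replicate 1 had log2 folds of 2.29 at chrM:9717-9797 and 2.22 at chrM:9798-9898, with 737 and 767 IP reads over 32 and 35 input reads. Replicate 2 had 2.41 at chrM:9725-9795, 2.16 at chrM:9796-9835 and 1.98 at chrM:9836-9922. The control cluster at chrM:9745-9893 stood at 1.23 (interval 0.55 to 1.91), with 20 IP reads over 132 input reads. COX3 therefore had the highest values of replicate 1 and one of the highest of the control, and the replicates lay above the control at every nucleotide the 3 IPs shared.

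On COX1, replicate 1 had 7 clusters and replicate 2 had 6, which merged into 5 separate sites. The site nearest the 5′ end, at 6.16% to 10.5% of the gene's length, held the highest mitochondrial value of replicate 2, a log2 fold of 2.49 (interval 2.11 to 2.88) at chrM:6011-6065. Replicate 1 had 1.27 (interval 0.76 to 1.78) there at chrM:5999-6057, and the control had 0.67 (interval -0.38 to 1.72) at chrM:6028-6047. At this site the intervals of the replicates did not overlap. The order of the libraries, with the control lowest and replicate 2 highest, was the same at the other COX1 sites.

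The COX1 site at 63.9% to 74.3% of the gene's length was the one where the control was enriched as well, with a log2 fold of 1.05 at chrM:6900-6962. Replicate 1 had values from 1.09 to 1.60 and replicate 2 had 1.96 and 2.15 at that site. At 34.2% to 46.4% the deepest COX1 clusters were found, with 1521 IP reads over 159 input reads in replicate 1 (log2 fold 1.02), 991 over 418 in replicate 2 (1.39) and 32 over 380 in the control (0.38, interval -0.14 to 0.90).

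COX2 clusters in replicate 1 lay between 1.32 and 1.89 and those in replicate 2 between 1.72 and 1.93, the narrowest range of the COX genes and CYTB in replicate 2. The control had 0.23 (interval -0.61 to 1.08) at chrM:7873-7934, in the middle of the gene, and 0.90 (interval -0.23 to 2.03) at chrM:8148-8175, near its 3′ end. The 3′ site was also listed in replicate 2, with a log2 fold of 1.73 at chrM:8136-8179, but not in replicate 1.

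CYTB encodes cytochrome b, the mitochondrial subunit of complex III. All 5 clusters of replicate 1 (0.87 to 1.90) and all 4 of replicate 2 (1.37 to 1.86) were enriched, and all lay in the first part of the gene, between 4.56% and 36.6% of its length. In replicate 1 the log2 folds were 1.56, 0.87, 0.92, 1.64 and 1.90 in order from the 5′ end, and in replicate 2 they were 1.79, 1.86, 1.72 and 1.37. The replicates therefore differed in shape along CYTB, with the highest value of replicate 1 and the lowest of replicate 2 at the 3′ end of the covered stretch. The control cluster at chrM:14964-15018 had 5 IP reads over 50 input reads and a log2 fold of 0.63 (interval -0.70 to 1.96).

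Of the 12 clusters of replicate 1 on COX1, COX2, COX3 and CYTB that overlapped a control cluster, all 12 had the higher log2 fold, and for 3 of them the counting intervals did not overlap. In replicate 2, all 11 such clusters had the higher log2 fold and 6 had intervals above those of the control. The few control reads, between 5 and 32 in the IP for each of these clusters, set the width of its intervals. Among all overlapping mitochondrial pairs, replicate 2 was above the control in 57 of 60, with 45 of 45 on the rRNAs. A higher fold than the control was therefore not particular to these genes in replicate 2. For replicate 1 the numbers were 22 of 38, with 9 of 21 on the rRNAs.

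**Figure D2:**
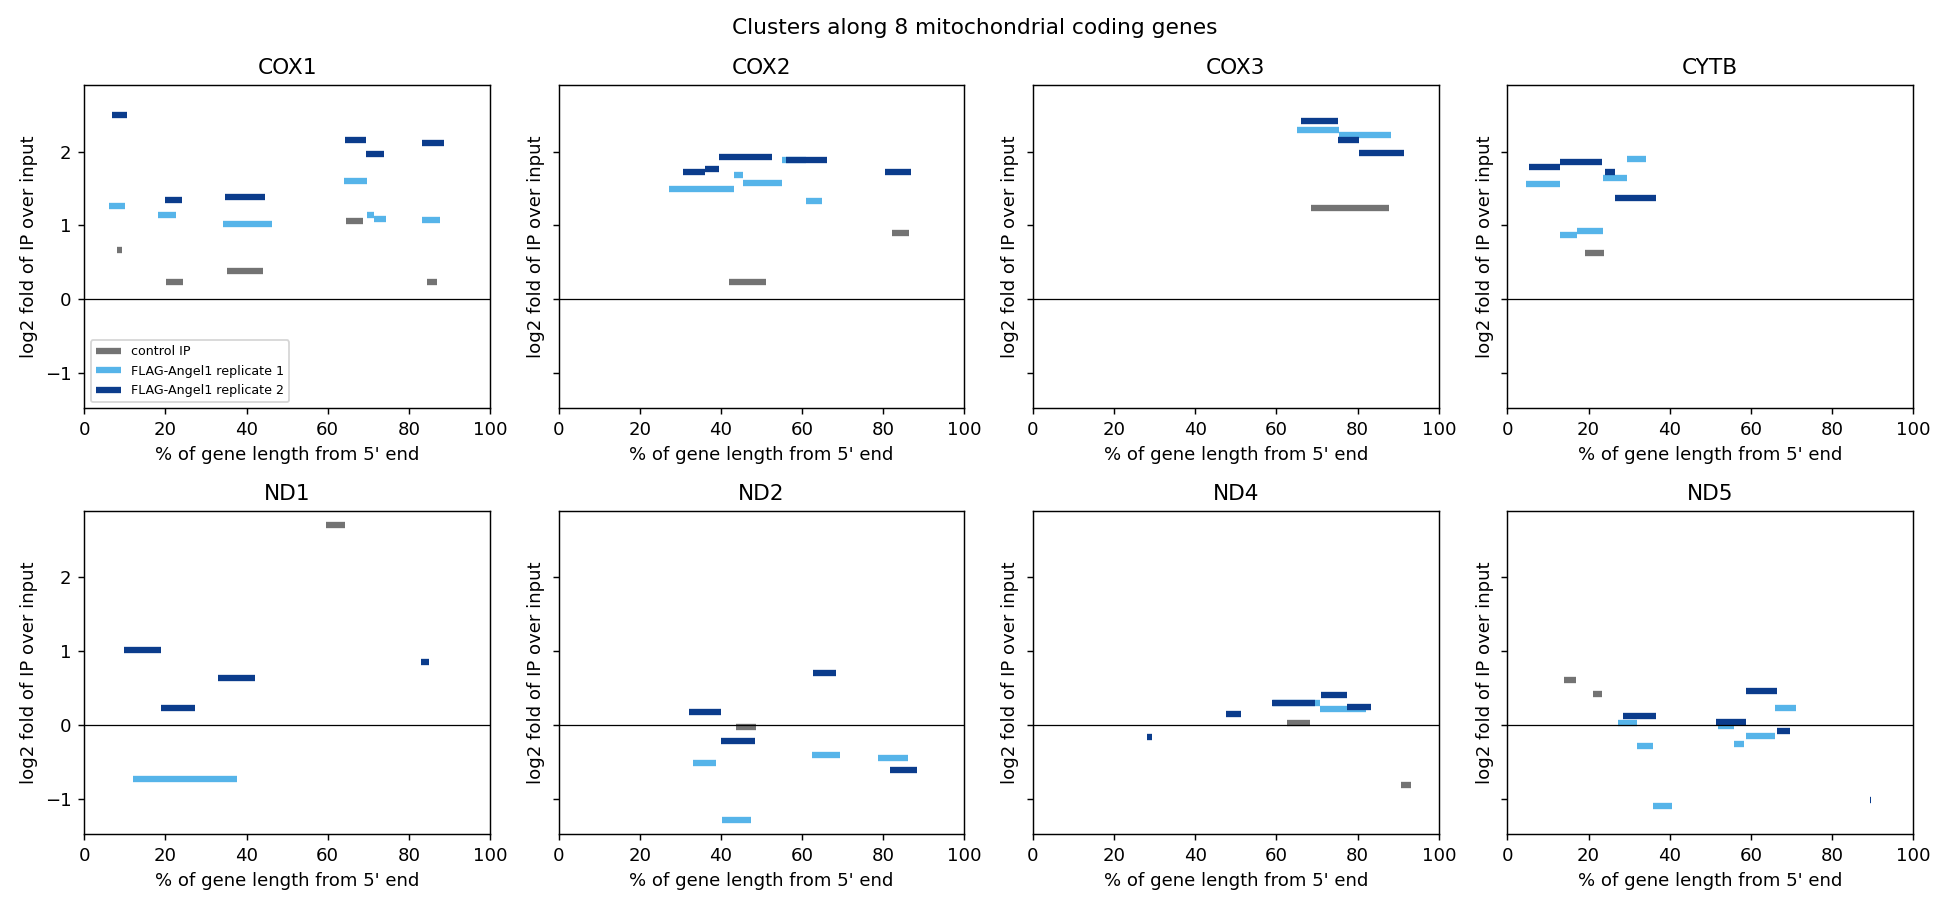
Log2 fold of IP over input (vertical axis) against position as a percent of gene length from the 5′ end (horizontal axis) for the clusters on 8 coding genes, with 1 bar per cluster spanning its position, in the control IP (grey), FLAG-Angel1 replicate 1 (light blue) and replicate 2 (dark blue). On COX1, COX2, COX3 and CYTB the FLAG-Angel1 bars lie at 0.87 or above, while on ND1, ND2, ND4 and ND5 they scatter between -1.28 and 1.02.

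The genes of complex I (NADH dehydrogenase), ND1 to ND6 and ND4L, had 17 clusters in replicate 1, of which 0 were enriched, with a median log2 fold of -0.40 and a highest value of 0.29. In replicate 2, 6 of 23 were enriched, with a median of 0.13 and a highest value of 1.02. Those 6 clusters were on ND1 (3 of 4), ND4 (2 of 5) and ND5 (1 of 5), and 1 of them passed the stricter threshold of 0.001, at chrM:3401-3486 on ND1 with 90 IP reads over 49 input reads. Across most of this stretch of ND1, replicate 1 had a single cluster of 247 nt with a log2 fold of -0.74.

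The highest mitochondrial value of the control IP also fell on ND1, a log2 fold of 2.71 (interval 1.51 to 3.90) at chrM:3877-3921 with 8 IP reads over 19 input reads. Neither FLAG-Angel1 IP had a cluster at that position. ND4 values were small and close in the replicates, 0.21 and 0.29 in replicate 1 and -0.16 to 0.40 in replicate 2. ND5 had 7 clusters in replicate 1 between -1.09 and 0.23, 5 in replicate 2 between -1.02 and 0.46, and 2 in the control at 0.60 and 0.42, which lay nearer to the 5′ end than any of the replicates'.

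ND2 had 4 clusters in each replicate, between -1.28 and -0.40 in replicate 1 and between -0.61 and 0.70 in replicate 2, and a control cluster at -0.02. ND3 had 1 cluster in each IP, at -2.23 and -0.36 in the replicates and -0.13 in the control. ND4L had values of -1.16 in replicate 1 and -1.26 to -0.70 in replicate 2, and no control cluster. All ND3 and ND4L values were below 0.

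The complex V genes, ATP6 and ATP8, had 5 clusters in replicate 1 and 2 in replicate 2, of which 0 were enriched. ATP6 values ran from -1.72 to 0.32 in replicate 1, were 0.00043 and -0.21 in replicate 2, and the only control cluster had 0.92 (interval -0.30 to 2.15) with 6 IP reads over 49 input reads. ATP8, whose reading frame overlaps that of ATP6, had 1 cluster, in replicate 1, at -2.65. Of the 13 coding genes, 13 had a cluster in replicate 1 and 12 in replicate 2, against 10 for the control IP. Every cluster was enriched for 4 of them in each replicate, the COX genes and CYTB.

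The 12S and 16S rRNAs, RNA components of the mitochondrial ribosome's small and large subunits, held 18 control clusters, 29 of replicate 1 and 58 of replicate 2. None of the 18 control clusters was enriched, 13 of 29 in replicate 1 were and 29 of 58 in replicate 2 were. The median log2 folds were -0.998, 0.01 and 0.14. The replicate 2 clusters were narrower, with a median width of 13.5 nt against 32 nt in replicate 1, and the covered length was similar, 1064 nt and 1022 nt.

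Values on the 16S rRNA (RNR2) ranged from -2.22 to 0.08 in the control, from -3.96 to 1.75 in replicate 1 and from -1.62 to 1.99 in replicate 2. In both replicates they were highest close to the 3′ end. Replicate 1 had its maximum of 1.75 at chrM:3048-3054, at 88.3% to 88.8% of the gene's length, with at least 5345 IP reads over 338 input reads. Replicate 2 had its maximum of 1.99 at chrM:3042-3044, at 87.9% to 88.1%, with at least 1851 IP reads over 514 input reads. The maxima of the replicates thus lay side by side, 4 nt apart at their nearest ends.

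The control had no cluster at that position. Its highest 16S value, 0.08 (interval -0.16 to 0.31), was at chrM:2971-3025, just upstream, with 159 IP reads over 2336 input reads. Its lowest was -2.22 at chrM:2410-2458, where replicate 1 also had its lowest rRNA value, -3.96 at chrM:2408-2452. The lowest 16S value of replicate 2, -1.62, was at chrM:1744-1761, where the control had -2.21 at chrM:1727-1762.

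On the 12S rRNA (RNR1), 4 of 13 clusters in replicate 1 and 14 of 16 in replicate 2 were enriched, with values of -2.48 to 0.75 and -0.71 to 1.56. The highest stretch lay at 61.1% to 71.3% of the gene's length, with up to 0.75 in replicate 1 and 1.56 in replicate 2, and the highest 12S value of the control, 0.08 (interval -0.10 to 0.27) at chrM:1269-1370, overlapped it. Near the 3′ end of the 12S rRNA the replicates were on opposite sides of 0, with -2.48 the lowest in replicate 1 and all values above 0 in replicate 2.

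**Figure D3:**
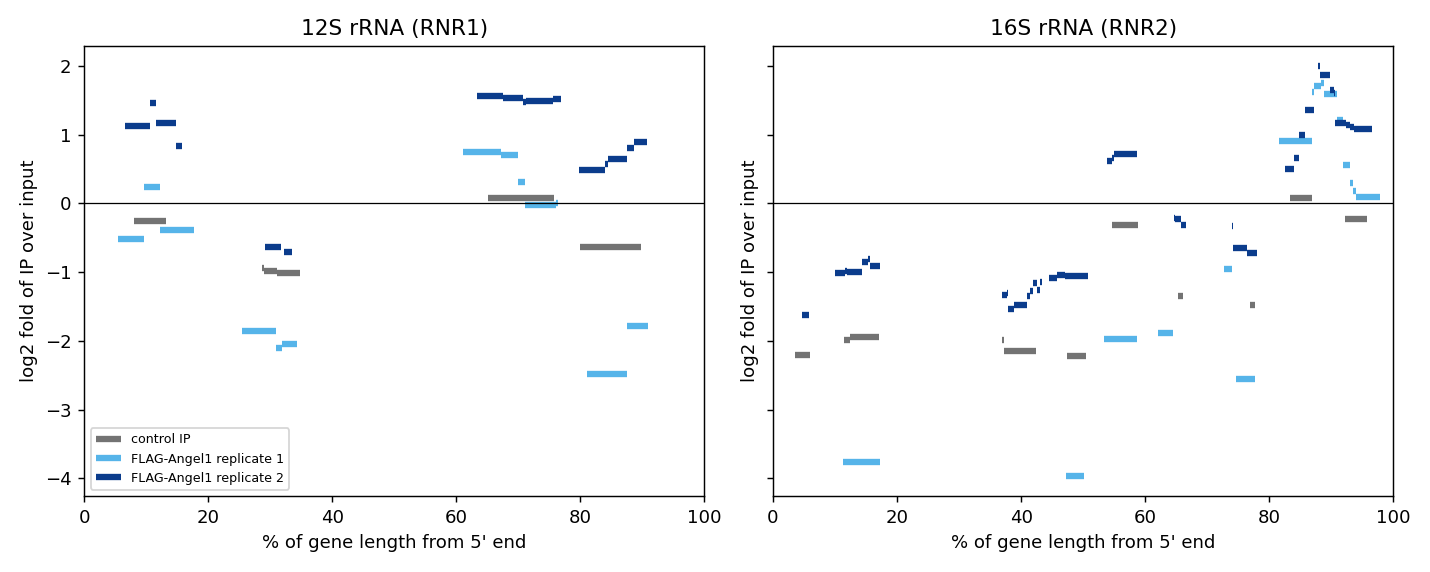
Log2 fold of IP over input (vertical axis) along the 12S (left) and 16S (right) rRNA as a percent of gene length from the 5′ end (horizontal axis), with 1 bar per cluster, in the control IP (grey), FLAG-Angel1 replicate 1 (light blue) and replicate 2 (dark blue). On the 12S rRNA the lowest value lies near the 3′ end in replicate 1 (-2.48) but further upstream in replicate 2 (-0.71) and the control (-1.01), and the 16S maxima of 1.75 and 1.99 in the replicates lie at about 88% of the gene's length.

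The median log2 fold of rRNA clusters was below that of coding clusters by 0.29 in replicate 1 and by 0.49 in replicate 2, a difference of -0.39 ± 0.15 (SD, n = 2). In the control the difference was -1.42. With 2 replicates and 1 control, no test of this difference was made. The number of clusters in a class depends on how finely the pipeline divided the reads. A mean weighted by width, used instead of the median, gave -0.92 in place of -0.39.

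Reads were far more numerous on the rRNAs, as the plot of IP against input reads shows. The 4 rRNA clusters at the cap of 400 in -log10 P in replicate 1 and the 25 in replicate 2 were the only mitochondrial clusters at the cap. The next highest mitochondrial values were 64.5 in replicate 1 and 85.4 in replicate 2, and the value 400 was not read as the size of P. Enriched coding clusters had a median of 429 IP and 35 input reads in replicate 1 and 335.5 and 107.5 in replicate 2.

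**Figure D4:**
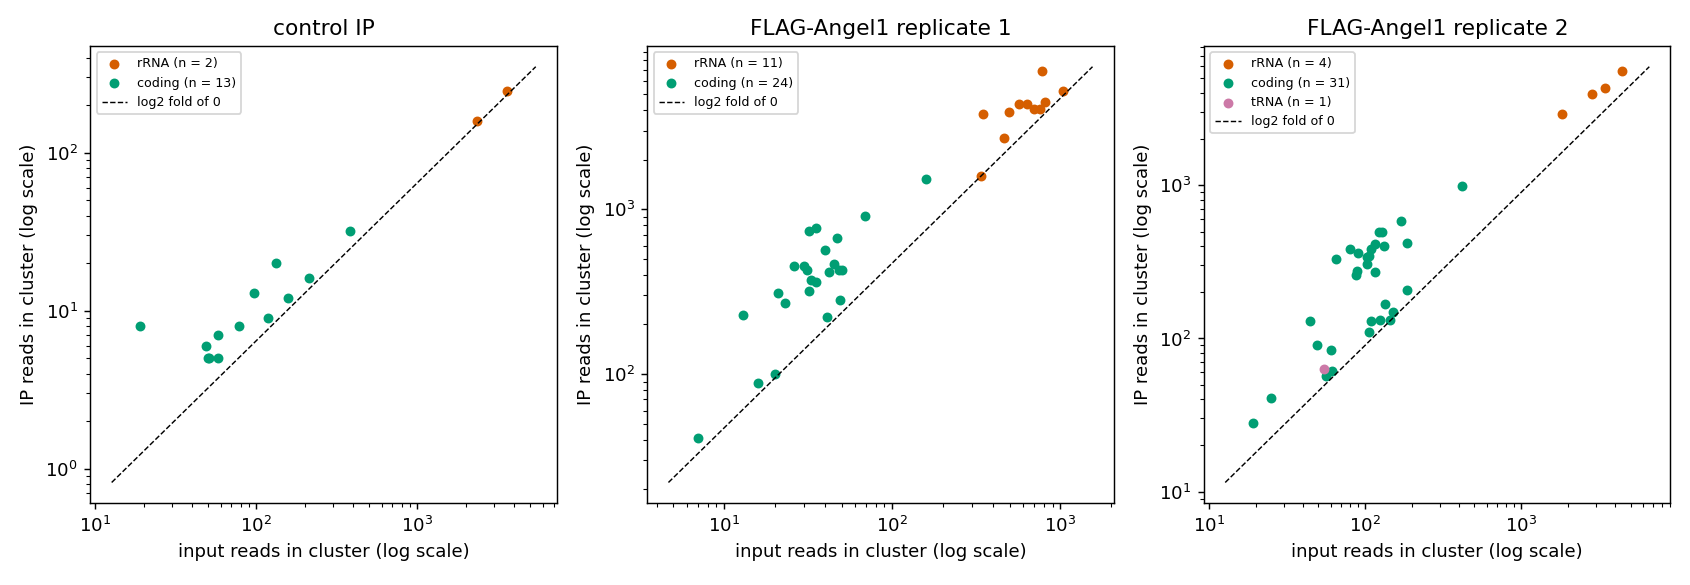
IP reads (vertical axis, log scale) against input reads (horizontal axis, log scale) for mitochondrial clusters whose reads were settled, in the control IP, FLAG-Angel1 replicate 1 and FLAG-Angel1 replicate 2, coloured by gene class, with the dashed line at a log2 fold of 0. The 3 enriched coding clusters of the control have a median of 13 IP reads, while those of the replicates have medians of 429 and 335.5.

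Clusters fell on 5 of the 22 tRNA genes in any IP, and 17 had none. On TRNF (tRNA-Phe), replicate 1 had a log2 fold of -1.03 and replicate 2 had 0.37 (interval -0.16 to 0.89). TRNV (tRNA-Val) had 3 clusters, all in replicate 1, between -1.80 and -1.74. TRNL2, 1 of the 2 tRNA-Leu genes, had a control value of -1.37 and values of -4.08 in replicate 1 and -2.35 in replicate 2, each the lowest on the plus strand of its replicate. Of the 11 tRNA clusters of the 3 IPs, 0 were enriched.

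The minus strand carries ND6 and 8 of the tRNA genes. It held 0 control clusters, 2 of replicate 1 and 3 of replicate 2, and all had log2 folds below 0. The ND6 clusters nearly coincided, with -1.54 at chrM:14322-14445 in replicate 1 and -0.78 at chrM:14321-14436 in replicate 2. TRNY (tRNA-Tyr) had -3.65 and -1.29, and TRNP (tRNA-Pro) had -2.65 in replicate 2 only. The clusters on both tRNAs covered mainly the 3′ part of the gene, from 53.0% to 89.4% for TRNY and from 44.1% to 91.2% for TRNP in replicate 2.

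The median log2 fold on the plus strand exceeded that on the minus strand by 2.68 in replicate 1 and 1.76 in replicate 2, or 2.22 ± 0.65 (SD, n = 2). Since the minus strand held so few clusters, its median rests on 2 and 3 values. Among coding genes alone the difference averaged 1.64, and ND6 was below the COX genes and CYTB in both replicates. ND6 was not below all plus-strand coding clusters. In replicate 1 ND3 (-2.23) and ATP8 (-2.65) were lower than ND6 (-1.54). In replicate 2 the lowest clusters on ND4L (-1.26) and ND5 (-1.02) were lower than ND6 (-0.78).

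The log2 folds were averaged over the 1286 nt that clusters of all 3 IPs covered, so that the same nucleotides were compared. The means over all these nucleotides were -0.03 for the control, -0.07 for replicate 1 and 1.01 for replicate 2. Relative to the control, the difference on COX1 was 0.68 in replicate 1 and 1.21 in replicate 2, on COX2 it was 1.36 and 1.70, on COX3 1.01 and 0.95, and on CYTB 0.29 and 1.22. On RNR1 it was -0.52 and 1.24, and on RNR2 it was -0.89 and 1.06. The COX genes and CYTB thus stood above the control in both replicates, whereas each rRNA stood below the control in replicate 1 and above it in replicate 2. On CYTB the difference rests on 49 nt and a control cluster of 5 IP reads. The interval of that cluster (-0.70 to 1.96) held that of replicate 1 there (0.49 to 1.35). Over all the shared nucleotides replicate 2 was 1.04 above the control. Its differences on COX1, COX3 and CYTB were close to this value and to those on the rRNAs. The COX2 difference of 1.70 was higher, but over 62 nt and a control cluster of 12 IP reads (interval -0.61 to 1.08). At the other COX2 site shared with the control, where replicate 1 had no cluster, replicate 2 had 1.73 and the control 0.90.

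Of the remaining genes, ND4 was 0.26 and 0.27 above the control over 79 nt, and ND2, ND3 and TRNL2 were below it in both replicates. The values for ND3 were -2.10 and -0.22 over 22 nt. The TRNL2 values, -2.71 and -0.98, rest on 5 nt. Averaged over the 2 replicates, the difference from the control was 1.53 ± 0.24 on COX2, 0.98 ± 0.05 on COX3, 0.94 ± 0.38 on COX1 and 0.76 ± 0.66 on CYTB (SD, n = 2). It was 0.26 ± 0.006 on ND4, 0.36 ± 1.24 on RNR1 and 0.08 ± 1.38 on RNR2. Below 0 were ND2 with -0.73 ± 0.75, ND3 with -1.16 ± 1.33 and TRNL2 with -1.85 ± 1.22. Both replicates were set against the same control library, and the SD is not a test of these differences. The control's own spread between samples is not known, as it was a single library.

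**Figure D5:**
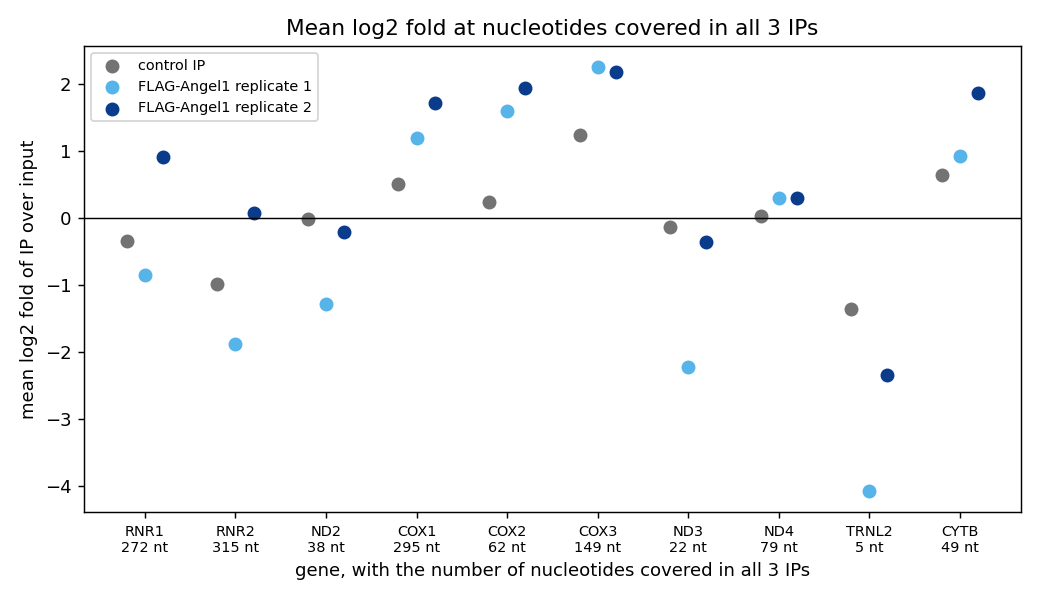
Mean log2 fold of IP over input (vertical axis) at the nucleotides covered by clusters in all 3 IPs, by gene (horizontal axis, with the number of nucleotides), for the control IP (grey), FLAG-Angel1 replicate 1 (light blue) and replicate 2 (dark blue). Both replicates lie above the control on COX1, COX2, COX3, ND4 and CYTB, and on opposite sides of it on RNR1 and RNR2.

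Across overlapping clusters, Pearson's r of the log2 fold was 0.86 between replicates 1 and 2 (68 pairs), 0.90 between replicate 1 and the control (38 pairs) and 0.92 between replicate 2 and the control (60 pairs). These values describe clusters, which share genes and reads with their neighbours. Most pairs with the control were on the rRNAs, 45 of the 60 for replicate 2 and 21 of the 38 for replicate 1. Among clusters on coding genes, r was 0.88 between the replicates (38 pairs), 0.64 between replicate 1 and the control (16 pairs) and 0.75 between replicate 2 and the control (14 pairs). The log2 fold was above the control in 57 of 60 pairs for replicate 2 and in 22 of 38 for replicate 1.

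Reproducible peaks were merged from clusters of replicates 1 and 2 that each passed a P of 0.001 with a positive log2 fold and shared at least 1 nt on one strand. Over all clusters, 4.22% of replicate 1 and 17.0% of replicate 2 passed this threshold, and 31 and 48 of the mitochondrial clusters did, while in the control 64.5% of all clusters and 2 mitochondrial ones did. They gave 15 reproducible peaks, 5 on COX1, 3 on CYTB, 2 each on COX2, RNR1 and RNR2, and 1 on COX3. All 31 clusters of replicate 1 and 34 of the 48 of replicate 2 entered a peak. The share of clusters on the other chromosomes that entered a peak is not given here. Whether the mitochondrial overlap differs from it therefore cannot be read from these counts. None lay on a complex I or complex V gene or on a tRNA, so that 9 of the 13 coding genes had no reproducible peak.

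The peaks were 67 to 206 nt wide. On the rRNAs they lay at chrM:711-788 and chrM:1231-1327 (12S) and at chrM:2944-3030 and chrM:3031-3131 (16S), the latter pair adjoining. To the peak at chrM:711-788 replicate 1 contributed only chrM:740-764, with a log2 fold of 0.24. Its clusters on either side, chrM:700-739 and chrM:765-816, had -0.52 and -0.39, whereas replicate 2 had 1.13 to 1.46 in this peak. On COX1 the peaks lay at chrM:5999-6065, chrM:6186-6275, chrM:6431-6618, chrM:6890-7048 and chrM:7186-7270. On COX2 they lay at chrM:7772-7961 and chrM:7962-8038, on COX3 at chrM:9717-9922, and on CYTB at chrM:14799-14893, chrM:14894-15014 and chrM:15015-15164. An enriched control cluster overlapped 2 of the 15, on COX1 (chrM:6890-7048) and COX3. No control cluster of any kind overlapped the second COX2 peak or the first CYTB peak, and at the others the control cluster was not enriched.

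Reads from mitochondrial RNA can also be placed on copies of mitochondrial sequence in the nuclear genome. The stretch of chromosome 1 that carries such a copy, whose annotated pseudogenes include those of ND1, ND2, COX1, COX2, COX3, ATP6 and ATP8, held 0 control clusters and 4 of each replicate, between chr1:567238 and chr1:569977. None was enriched, and the highest log2 folds, 1.09 in replicate 1 and 2.14 in replicate 2, came from 10 and 4 IP reads over 1 input read. How the pipeline divided reads between the chromosomes was not tested. Leaving out the genes that this copy holds, replicate 1 had 18 enriched clusters, replicate 2 had 36 and the control had 0, and those of the replicates were all on CYTB, the rRNAs, ND4 or ND5.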

How the data were processed

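The mitochondrial clusters of 3 eCLIP IPs, 1 control and 2 FLAG-Angel1 replicates, were taken from the authors' cluster lists. The members and the lists of genes were chosen with earlier results of these data known. Per the labels, cutadapt, STAR, SAMtools and UMI-tools were used, with GRCh37 (hg19), and clusters were normalized to the matched input by the eCLIP pipeline. Each deposited cluster has a log2 fold, IP over input. Its P-value, as −log10, was likewise given by the authors. It is 0 for clusters at or below a log2 fold of 0, and 400 is its largest entry, used here as a cap and not as the size of P. The inputs had no list of their own here.

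Coordinates are counted from 1. Gene names and order came from RefSeq (GRCh38.p14, no coordinates of which are printed), and each cluster was assigned to the gene it overlapped most. The 2 rRNA and 13 coding genes were all described, as were tRNA genes holding a cluster, the reproducible peaks and the highest log2 folds of each library and strand. The log2 fold, corrected for the ratio of the library sizes, was an exact ratio of whole numbers (relative tolerance 1e-12) for all 217 clusters. The multiple was settled by matching the deposited P (within 1e-04 in −log10 P), using Fisher's exact test where an observed or expected number of reads was below 5 and a chi-square test with Yates' correction otherwise. The library sizes were those at which 300 of 300 clusters per library returned their P. Their ratio was set by taking the most frequent log2 fold as 3 IP reads over 1 input read. The recovery of reads was tried on simulated reads with the library sizes given. Of these, 177 of 180 were recovered at sizes near those of the control, 160 of 160 near replicate 1 and 146 of 146 near replicate 2. The inference of the library sizes was not tested by this simulation. The small control IP limits the precision of its clusters. No test was made between libraries. Alternatives covered thresholds, overlap, strand, width and joined clusters. Python 3.11.15, numpy 2.4.6, pandas 2.3.3, scipy 1.17.1 and matplotlib 3.10.9 were used.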

Additional observations from a re-analysis of the deposited data

Results flagged for a closer look

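The median log2 fold on ATP6 was 0.92 in the control, from 1 cluster, against -0.38 in replicate 1 and -0.11 in replicate 2, so that the medians of the FLAG-Angel1 replicates lay on the other side of 0 from the control. On ND4 the median was -0.39 in the control, from 2 clusters, and 0.25 in both replicate 1 and replicate 2. In neither gene was the difference tested, and the medians rest on clusters at partly different positions. Within the ATP6 control cluster, replicate 1 had a log2 fold of 0.32 and replicate 2 had no cluster. On the ND4 nucleotides covered in all 3 IPs, the control had 0.03 and the replicates had 0.29 and 0.30. At shared positions the values were thus on the same side of 0.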

How the results depend on the processing

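With a log2 fold of at least 3 and a threshold of 0.001, 0 mitochondrial clusters were called in the control, replicate 1 or replicate 2, against 3, 32 and 53 past the authors' P of 0.05. With adjoining enriched clusters joined, 11 were counted in replicate 1 and 23 in replicate 2. Without the genes in the nuclear copy, an alternative chosen after seeing the data, 0 were counted in the control and 18 in replicate 1. The 15 reproducible peaks became 11 to 15 under the other settings, and counting strict clusters of a single replicate, leaving out either replicate, gave 31 to 48. The difference of rRNA from coding clusters, -0.39, was -0.73 for clusters of at least 20 nt and -0.92 as a mean weighted by width. It ran from -0.49 to -0.29 leaving out either replicate. The difference of the plus from the minus strand, 2.22, ran from 1.64 to 2.32 across settings and from 1.76 to 2.68 leaving out either replicate. No difference changed its sign. The cause of these changes was not tested. Each log2 fold already sets an IP against its own input. No paired analysis was possible because the single control library shares fewer than 2 replicate numbers with FLAG-Angel1. The 209788 reads of the control IP limit what its clusters can show.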
